A study of Mus musculus with 6 samples.

Results

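The genes described here are 8 genes that anchor a basal epithelial cell to its basement membrane: Itga6, Itgb4, Lama3, Lamb3, Col17a1, Dst, Plec and Cd151. They were taken by name, with every probe set that the array annotation assigns to one of them alone. That gave 20 of 45037 probe sets, for 8 of 18193 genes. Another 1 probe set, shared by Plec and Parp10, was left out. Of the 20 probe sets, 17 passed a filter on low values and were tested, with at least 1 for each gene.

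Epithelial cells were taken from the bladders of mice at postnatal day 7 and divided into DsRed-positive and DsRed-negative cells. Each group held 3 arrays, numbered 1, 2 and 5. All samples share the label of the same Upk1b allele (B6;129P-Upk1btm1Zhang/J), in which Upk1b, a uroplakin of the urothelial surface, is the reported gene, the strain FVB/N x C57BL/6 and the sex male. How the 2 cell populations were parted is not stated there, and the samples were not pooled. Nothing in the labels ties samples to separate animals, so the p-values describe only how these samples spread, which may be technical. The epithelium was separated from the bladder wall with trypsin and dissection and then digested to single cells, RNA was amplified in 2 rounds, and Affymetrix mouse genome arrays were hybridized. The question put to these genes was whether their transcripts separated reporter-bearing from reporter-lacking cells of this preparation.

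A hemidesmosome joins the keratin filaments of a basal cell to the basement membrane. Its membrane core is the integrin made of the alpha 6 chain (Itga6) and the beta 4 chain (Itgb4), together with the transmembrane collagen XVII (Col17a1) and the tetraspanin Cd151. Inside the cell, the plakins plectin (Plec) and dystonin (Dst, whose epithelial form is the bullous pemphigoid antigen BP230) tie this core to keratins. Outside, the integrin binds a laminin that holds the alpha 3 chain (Lama3) and the beta 3 chain (Lamb3). In the urothelium such anchors belong to the basal layer, below the intermediate and umbrella cells that carry uroplakins.

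RefSeq promoter windows (GRCm38.p6, 250 bases before to 50 after an annotated start) were searched for 4 of the 8 genes, in 7 windows. None were held for Itga6, Itgb4 and Plec. Lama3 was left out of the search, so the motif counts below do not cover it. Of the 7 windows, 4 are printed, for a laminin chain that rose, for the 2 starts of the gene whose probe sets disagreed, and for a gene that did not pass. The windows not printed, another of Lamb3, another of Cd151 and that of Col17a1, held no match to any motif searched. Capitals mark matches, on either strand, to an E-box (CACCTG) or to a KLF/SP motif (CCGCCC, read as GGGCGG on the other strand).
Lamb3, chr1:193301993-193302292, plus strand: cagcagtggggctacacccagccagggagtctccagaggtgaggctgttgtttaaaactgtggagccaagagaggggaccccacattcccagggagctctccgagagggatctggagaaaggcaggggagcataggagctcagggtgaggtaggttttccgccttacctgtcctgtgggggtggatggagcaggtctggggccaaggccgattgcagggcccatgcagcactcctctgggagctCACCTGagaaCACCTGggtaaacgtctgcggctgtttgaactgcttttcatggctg
Dst, upstream window, chr1:34011345-34011644, plus strand: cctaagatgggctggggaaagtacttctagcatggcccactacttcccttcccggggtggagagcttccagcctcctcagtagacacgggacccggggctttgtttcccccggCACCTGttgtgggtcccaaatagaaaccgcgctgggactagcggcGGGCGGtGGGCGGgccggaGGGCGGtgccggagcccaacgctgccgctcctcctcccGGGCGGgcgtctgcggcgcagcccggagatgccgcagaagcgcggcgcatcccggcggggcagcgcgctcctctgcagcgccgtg
Dst, downstream window, chr1:34160010-34160309, plus strand: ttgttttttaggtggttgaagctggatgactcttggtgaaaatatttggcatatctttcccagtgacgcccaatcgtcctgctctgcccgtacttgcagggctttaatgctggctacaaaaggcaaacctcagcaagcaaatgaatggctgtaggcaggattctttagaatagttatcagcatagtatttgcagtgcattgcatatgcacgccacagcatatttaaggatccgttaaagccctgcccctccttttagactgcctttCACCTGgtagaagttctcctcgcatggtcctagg
Cd151, chr7:141467112-141467411, plus strand: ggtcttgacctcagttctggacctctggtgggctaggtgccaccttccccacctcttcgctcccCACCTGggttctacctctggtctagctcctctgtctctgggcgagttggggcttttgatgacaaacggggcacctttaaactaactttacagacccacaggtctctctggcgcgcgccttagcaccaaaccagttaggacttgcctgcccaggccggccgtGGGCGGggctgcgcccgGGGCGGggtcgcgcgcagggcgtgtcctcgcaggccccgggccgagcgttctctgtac
The E-box letters occurred in 4 of the 7 member windows and in 20.2% of all 32851 promoter windows. The KLF/SP letters occurred in 2 of the 7 and in 35.7% of all windows, with 4 matches in the upstream Dst window and none in the downstream one. An AP-1 motif (TGANTCA, in 7.81% of all windows), a GATA motif (GATAAG, 7.44%) and the p53-family half-site (1.93%) matched none of the 7. No marked match overlapped another. These matches describe the letters of the windows and nothing more.

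Deposited signals were raised by an offset of 39.84, taken to log2 and quantile normalized, and every level below is on that log2 scale unless called deposited. The level of unspiked control probe sets on each array, 7.41 to 7.56 in DsRed-positive and 7.69 to 8.03 in DsRed-negative arrays, served as a floor. All 4 probe sets of Upk1b, the labelled gene, rose in DsRed-positive cells, by 3.18 to 4.28. All samples are labelled as epithelial cells, yet the mean of 8 fibroblast and matrix markers was 9.93 to 10.47 in DsRed-positive arrays and 16.12 to 16.38 in DsRed-negative arrays. The mean of 7 epithelial markers was 15.42 to 15.62 in DsRed-positive and 11.32 to 12.36 in DsRed-negative arrays. Both arrays numbered 1 went against their label of male. Xist, the RNA of the inactive X chromosome, had 15.08 in DsRed-positive 1 and 15.48 in DsRed-negative 1, against 8.08 to 8.89 on the other arrays. The Y-linked Eif2s3y had 6.32 and 5.44 there, against 11.78 to 12.93. Another Y-linked gene, Kdm5d, did not set the number 1 arrays (6.13 and 6.06) apart. It had 9.99 and 8.27 in DsRed-positive 2 and 5, and 7.9 and 5.97 in DsRed-negative 2 and 5. Because of Xist and Eif2s3y, results are also given without both arrays numbered 1. The ratio of 3' to 5' actin signal, a sign of RNA integrity and amplification, was 4.28 to 5.57 in DsRed-positive and 6.85 to 9.49 in DsRed-negative arrays; that of Gapdh was 11.9 to 16.4 and 10.2 to 12.8.

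Transcripts of the laminin chains Lama3 and Lamb3, of the integrin alpha 6 chain (Itga6) and of dystonin (Dst, on 3 of 4 probe sets) were higher in DsRed-positive cells, by 3.16-fold to 22.1-fold. The tests of Itgb4, Col17a1, Plec and Cd151 did not pass. Of 17 tested probe sets, 7 rose and 0 fell in DsRed-positive cells (limma, Benjamini-Hochberg adjusted p under 0.05 over all 30175 tested probe sets; 9 of 17 had an unadjusted p under 0.05). Over all tested probe sets 8.63% rose and 8.62% fell. In 7 of the 17 every DsRed-positive array lay above every DsRed-negative one, as in 21% of all tested probe sets. The 7 probe sets belong to Lama3, Lamb3, Itga6 (2) and Dst (3). The median change of the 17 was 1.66 on the log2 scale, against 0.09 over all tested probe sets. On 1 probe set per gene, that with the highest mean signal, 3 of 8 genes rose (Itga6, Lama3 and Lamb3) and 0 fell, against 9.21% and 11.3% of 14222 genes. The 2 counts differ for Dst, whose brightest probe set is the one of its 4 that did not pass. Without both arrays numbered 1, 2 of 17 probe sets were called, Lamb3 and the Dst probe set 1421276_a_at, where 3.06% of all tested probe sets rose; all 7 kept a positive change. In bulk RNA, fewer cells of a type and less RNA per cell cannot be told apart.

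**Figure D1:**
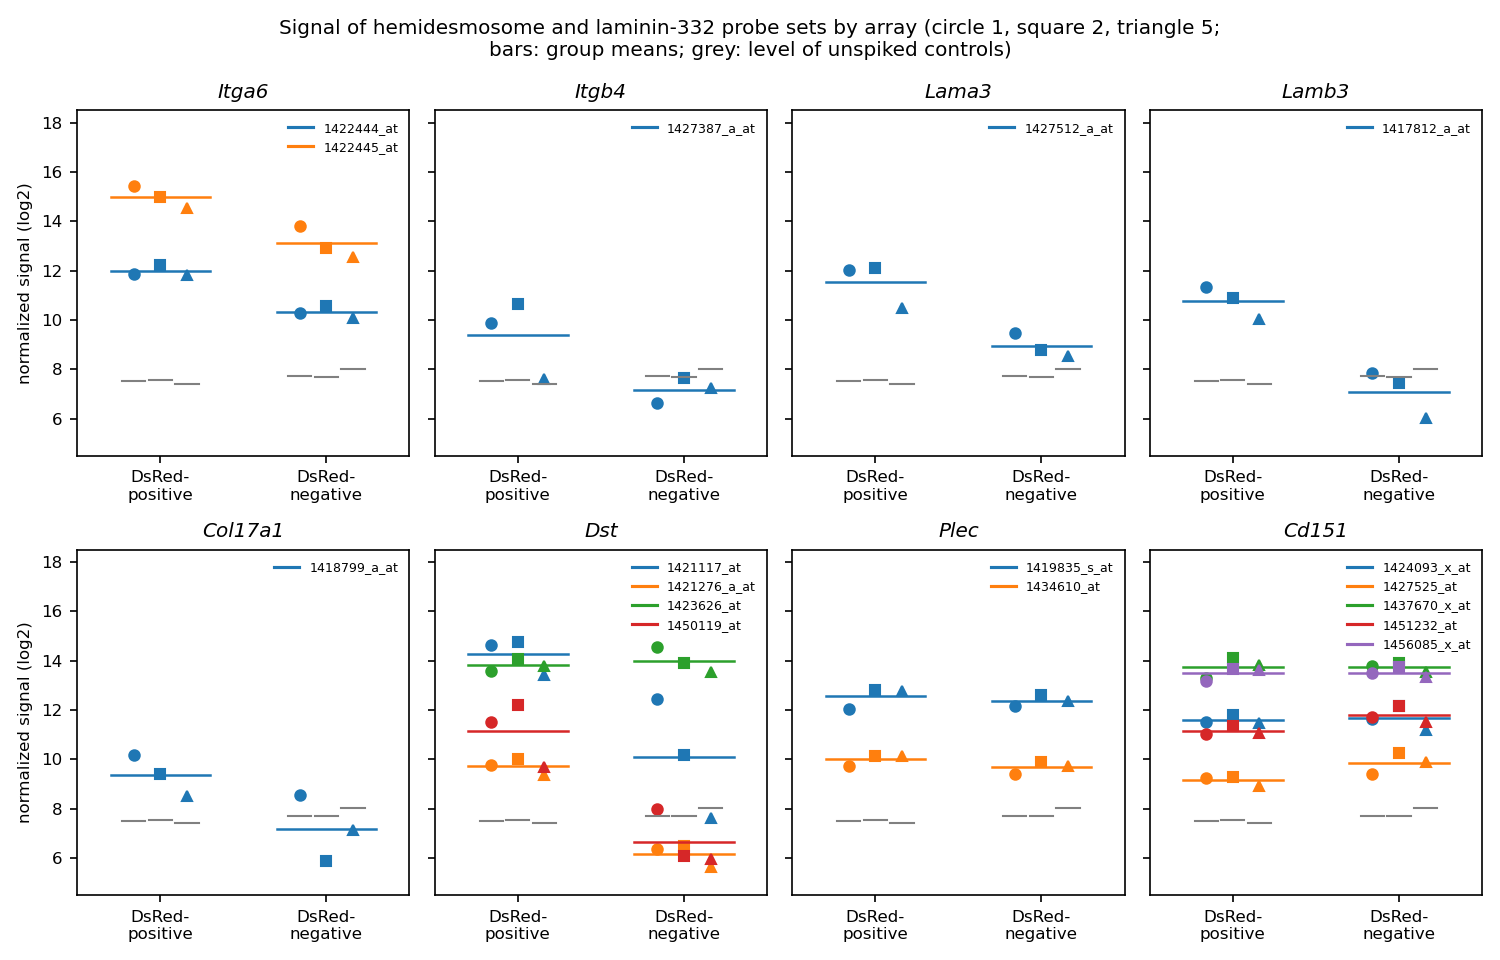
Normalized log2 signal (y axis) of the 17 tested probe sets in DsRed-positive and DsRed-negative arrays (x axis), 1 panel per gene. Symbols give the array number, coloured bars the group means of 3 arrays and grey bars the floor of each array. Lamb3 lies between 10.06 and 11.35 in DsRed-positive cells and between 6.01 and 7.86 in DsRed-negative cells, while the tested Plec and Cd151 probe sets differ between groups by -0.71 to 0.33.

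Lamb3, the beta 3 chain, had a deposited signal of 2781, 1800 and 1015 in DsRed-positive arrays 1, 2 and 5, against 227, 180 and 30.8 in DsRed-negative arrays 1, 2 and 5. On the log2 scale it had 11.35, 10.91 and 10.06 in DsRed-positive cells, against 7.86, 7.43 and 6.01 in DsRed-negative cells. The groups did not overlap, with a gap of 2.21 between the lowest DsRed-positive and the highest DsRed-negative array. Lamb3 averaged 10.77 ± 0.65 in DsRed-positive cells and 7.10 ± 0.97 in DsRed-negative cells (SD, n = 3 each), and it rose by 3.67 ± 0.57 (SE), or 12.8-fold (limma adjusted p = 0.00456). In DsRed-negative cells 2 of the 3 arrays lay at or below the floor, so this fold rests partly on signal at the control level. The rise was called in each of the 6 fits without 1 array (3.13 to 4.05, adjusted p up to 0.0278) and without both arrays numbered 1 (3.76, adjusted p = 0.0449).

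Lama3, the alpha 3 chain that the integrin binds, had 12.01, 12.12 and 10.5 in DsRed-positive arrays, against 9.49, 8.77 and 8.54 in DsRed-negative arrays. DsRed-positive 5 was the lowest of its group and still lay 1.01 above DsRed-negative 1. Lama3 averaged 11.54 ± 0.90 in DsRed-positive cells and 8.93 ± 0.50 in DsRed-negative cells, and it rose by 2.61 ± 0.53, or 6.11-fold (adjusted p = 0.0137), with all arrays above the floor. The call was lost without DsRed-positive 1 (adjusted p = 0.0667) or DsRed-positive 2 (0.0563), and without both arrays numbered 1 (2.66, adjusted p = 0.0950). A second Lama3 probe set, 1444860_at, was too dim to be tested, with 5 of its 6 arrays at or below the floor.

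Of the 2 chains of the hemidesmosomal integrin, Itga6 passed and Itgb4 did not. Itga6, the alpha 6 chain, lay above the floor on every array with both of its probe sets. On 1422445_at it had 15.45, 14.97 and 14.54 in DsRed-positive arrays, against 13.83, 12.92 and 12.57 in DsRed-negative arrays. Groups did not overlap there or on 1422444_at, which had 11.85, 12.22 and 11.84 in DsRed-positive and 10.29, 10.57 and 10.07 in DsRed-negative arrays. Itga6 rose by 1.88 ± 0.45 (adjusted p = 0.0269) on the first and by 1.66 ± 0.33 (adjusted p = 0.0127) on the second, which is 3.68-fold and 3.16-fold. Between arrays of the same number the second moved by 1.56, 1.65 and 1.77, an even difference. Alpha 6 also pairs with the beta 1 chain in other cells, endothelium among them, and endothelial markers were higher in DsRed-negative arrays, where their part in the Itga6 signal was not tested. The call of 1422445_at was lost in 4 of 6 fits without 1 array (without DsRed-positive 1 or 2, or DsRed-negative 2 or 5, adjusted p up to 0.110), and that of 1422444_at in 1 (without DsRed-positive 2, adjusted p = 0.0582). Without both arrays numbered 1 the changes were 2.01 and 1.71, and neither passed (adjusted p of 0.0703 and 0.103).

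Itgb4, the beta 4 chain that is particular to this integrin, had 9.86, 10.65 and 7.61 in DsRed-positive arrays, against 6.64, 7.65 and 7.23 in DsRed-negative arrays. All 3 DsRed-negative arrays lay at or below the floor, while DsRed-positive 5 lay just above its own floor of 7.41. The groups overlapped, because DsRed-positive 5 lay below DsRed-negative 2. Itgb4 averaged 9.37 ± 1.58 in DsRed-positive cells and 7.17 ± 0.51 in DsRed-negative cells. The DsRed-positive mean was 2.96-fold above the floor of the DsRed-negative arrays. That fold is no lower bound on the change, because DsRed-positive 5 lay below the floor of every DsRed-negative array. The change did not pass (2.20 ± 0.76, adjusted p = 0.0896). DsRed-positive 5 decided this: without it the change was 3.08 and passed (adjusted p = 0.0122). Without both arrays numbered 1 it was 1.69 (adjusted p = 0.408).

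Col17a1, the transmembrane collagen of the anchor, had 10.16, 9.40 and 8.53 in DsRed-positive arrays, against 8.56, 5.87 and 7.15 in DsRed-negative arrays. DsRed-positive 5 and DsRed-negative 1 had nearly the same level, so the groups overlapped, and the other 2 DsRed-negative arrays lay at or below the floor. The change of 2.17 ± 0.72 did not pass (95% confidence interval 0.48 to 3.85, adjusted p = 0.0827). Leaving out DsRed-negative 1 gave 2.85 and a call (adjusted p = 0.0293), while leaving out both arrays numbered 1 gave 2.45 (adjusted p = 0.104).

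Dst gave the largest changes of the 8 genes and also one of the smallest, depending on the probe set. Probe sets 1421117_at and 1450119_at are listed against 1 shared transcript, 1421276_a_at against another Dst transcript and 1423626_at against an expressed sequence tag. On 1450119_at Dst had 11.52, 12.20 and 9.68 in DsRed-positive arrays, against 7.97, 6.07 and 5.94 in DsRed-negative arrays, and it rose by 4.47 ± 0.78 (adjusted p = 0.00766, and 0.0501 without both arrays numbered 1). In DsRed-negative cells 2 of the 3 arrays lay at or below the floor there. On 1421276_a_at it had 9.77, 10.03 and 9.38 in DsRed-positive arrays, against 6.36, 6.49 and 5.62 in DsRed-negative arrays. There every DsRed-negative array lay at or below the floor, the gap between the groups was 2.89, and Dst rose by 3.57 ± 0.38 (adjusted p = 0.000884), at least 3.78-fold against the floor. This call was kept in all 6 fits without 1 array and without both arrays numbered 1 (3.66, adjusted p = 0.0299).

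On 1421117_at Dst had 14.64, 14.76 and 13.42 in DsRed-positive arrays, against 12.46, 10.18 and 7.61 in DsRed-negative arrays. The DsRed-negative arrays spread widely (SD 2.43), from signal below the floor in array 5 to well above it in array 1. The rise of 4.19 ± 1.11 (adjusted p = 0.0391) was lost in 4 of 6 fits that dropped 1 array (any DsRed-positive array, or DsRed-negative 2), the highest adjusted p being 0.135 without DsRed-positive 1. Without both arrays numbered 1 it was 5.19 (adjusted p = 0.0580). The fourth probe set, 1423626_at, had 13.59, 14.06 and 13.80 in DsRed-positive arrays, against 14.56, 13.91 and 13.54 in DsRed-negative arrays. It was as bright in DsRed-negative as in DsRed-positive cells, and its change of -0.18 ± 0.38 did not pass (95% confidence interval -1.07 to 0.70). Within arrays, the other 3 probe sets changed by 3.76 to 4.65 more than 1423626_at, and in each case the groups did not overlap (two-sided exact permutation test, p = 0.1, the smallest that 3 arrays against 3 allow; adjusted p = 0.142 over the 37 such differences computed). Dst makes long transcripts of different tissues, muscle and nerve among them, from several starts, and the annotation used here does not say which of them each probe set reads.

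**Figure D2:**
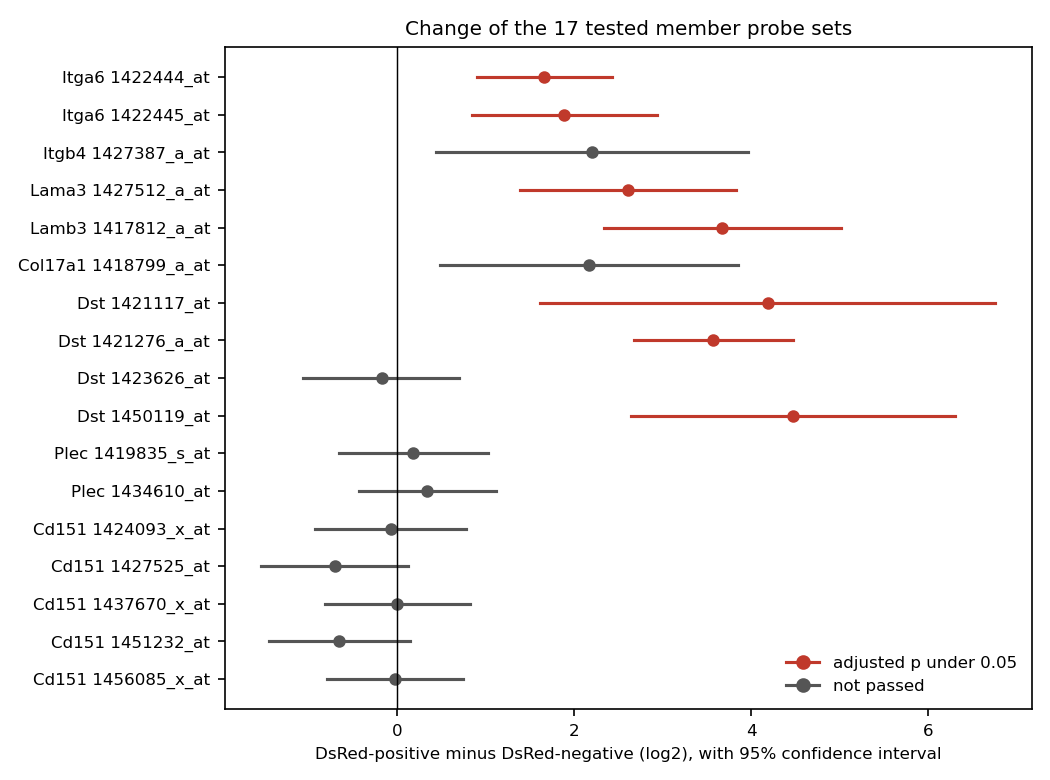
Change in log2 signal, DsRed-positive minus DsRed-negative (x axis), for the 17 tested probe sets (y axis), with 95% confidence intervals from limma. Red marks the 7 probe sets that passed, all above 0; the intervals of Plec, Cd151 and the Dst probe set 1423626_at include 0.

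Plectin, the plakin that links the beta 4 chain to keratin and is made in most tissues, did not pass on either tested probe set. Its brightest probe set had 12.05, 12.82 and 12.78 in DsRed-positive arrays, against 12.15, 12.59 and 12.37 in DsRed-negative arrays. These ranges overlap, and the change of 0.18 had a 95% confidence interval of -0.66 to 1.02 (adjusted p = 0.777). Probe set 1434610_at gave 0.33 (-0.44 to 1.11), and the third, 1437554_at, was too dim to be tested. Plec, like Dst, is transcribed from several first exons.

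Cd151, the tetraspanin that associates with laminin-binding integrins and is also made by endothelium, muscle and fibroblasts, did not pass on any of its 5 tested probe sets. On the brightest, 1437670_x_at, it had 13.31, 14.10 and 13.83 in DsRed-positive arrays, against 13.78, 13.92 and 13.55 in DsRed-negative arrays. The change was 0.00 with a 95% confidence interval of -0.82 to 0.82 (adjusted p = 0.999). The 3 probe sets with the suffix _x_at, whose probes can also bind other transcripts, gave -0.07 to 0.00. The other 2, 1427525_at and 1451232_at, gave -0.71 (adjusted p = 0.218) and -0.66 (adjusted p = 0.234), and on each every DsRed-positive array lay below every DsRed-negative one, by a gap of 0.15. Of all tested probe sets, 17.5% were separated in that direction. A sixth probe set, 1420921_at, was at or below the floor on all 6 arrays.

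The size of these small differences depended on the scaling. Before quantile normalization the DsRed-positive minus DsRed-negative difference of the median log2 signal was -0.54. Over the other 8 settings that kept all arrays, changes of the Cd151 probe sets ranged from -0.96 (1427525_at on unnormalized values) to 0.62. Those of Plec ranged from 0.16 to 0.85, and no Cd151 or Plec probe set passed under any setting. All 7 calls also passed on unnormalized values and on median-centred arrays.

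To set the anchor beside the epithelium as such, its changes were compared with those of marker lists. A list of 7 epithelial markers (Cdh1, Epcam, Krt7, Krt18, Krt8, Cldn7 and Cldn4) rose by 3.78 on average, and a list of 5 basal urothelial markers (Krt5, Krt14, Krt15, Trp63 and Shh) by 2.70. Within the basal list Shh rose by 4.12 and the other markers by 2.03 to 2.61. Without both arrays numbered 1, 7 of the 7 epithelial markers were called higher, but only 2 of the 5 basal markers (Krt5 and Shh). Relative to the epithelial list within each array, Itga6 changed by -1.89 and -2.11 and Lama3 by -1.17. Plec, Cd151 and the Dst probe set 1423626_at changed by -3.44 to -4.48. In each of these cases the groups did not overlap. A probe set that hardly changes falls below a list that rose by 3.78, and the median change over all tested probe sets was 0.09. The share of all probe sets that would fall below it without overlap was not computed. Lamb3 changed by -0.10, Itgb4 by -1.58, Col17a1 by -1.61 and the 3 responding Dst probe sets by -0.20 to 0.69, with overlapping groups. Relative to the basal list, groups did not overlap for Itga6 (-0.82 and -1.04) or for Plec, Cd151 and the Dst probe set 1423626_at (-2.36 to -3.4). Lama3 (-0.09), Itgb4 (-0.50) and Col17a1 (-0.53) overlapped with it, and Lamb3 (0.98) and the Dst probe set 1421276_a_at (0.88) lay above it without overlap. The Dst probe sets 1421117_at (1.49) and 1450119_at (1.77) differed more from it, but with overlapping groups. For the basal list too, the share of all probe sets that would lie below or above it without overlap was not computed. With 3 arrays against 3 an exact permutation test cannot go below p = 0.1 (0.142 adjusted), so these differences are given as values and no test of them could pass.

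The anchor probe sets with the larger rises were not equally high in the 3 DsRed-positive arrays. Over 9 probe sets chosen after their values were seen (those of Itga6, Itgb4, Lama3, Lamb3 and Col17a1 and the 3 responding ones of Dst), DsRed-positive 5 was the lowest of its group in 9 of 9. DsRed-negative 1 was the highest of its group in 6 of 9. The share of all tested probe sets with these orders was not computed. Other tested members differed in order. The brightest probe sets of Plec (12.05) and Cd151 (13.31) were lowest in DsRed-positive 1, and Cd151 1427525_at (8.92) was lowest in DsRed-positive 5. Over all 8 genes, the mean of the standardized brightest probe sets was 0.25, 0.99 and 0.23 in DsRed-positive arrays 1, 2 and 5. On that mean, array 5 was not set apart from array 1. Set against its own mean over all arrays, the mean of the 9 stood at 1.85, 1.93 and 0.63 in DsRed-positive arrays 1, 2 and 5, and at -0.72, -1.55 and -2.13 in the DsRed-negative arrays. The basal list stood at 1.67, 1.35 and 1.03 in DsRed-positive and at -0.85, -1.45 and -1.75 in DsRed-negative arrays. Uroplakins stood at 1.96, 2.28 and 2.40 and at -1.53, -2.27 and -2.84. In DsRed-positive 5 the basal keratins Krt5 (13.45), Krt14 (11.16) and Krt15 (13.30) were also at the lowest of their group, while Trp63 (14.13), the transcription factor of basal epithelium, was at its highest. The part of cell composition in these differences was not tested.

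**Figure D3:**
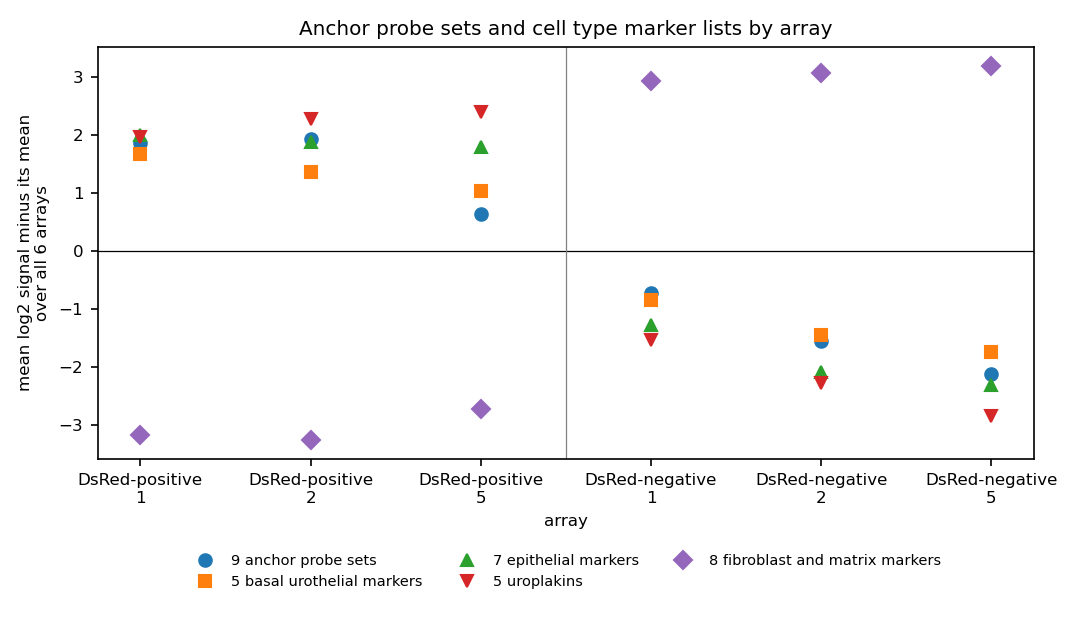
Mean log2 signal of 9 anchor probe sets and of 4 marker lists (y axis, each as the difference from its own mean over the 6 arrays) in every array (x axis). The 9 were chosen after their values were seen. They leave out Plec, Cd151 and the Dst probe set that did not rise, and hold 3 probe sets of Dst and 2 of Itga6. The mean of these 9 is 1.85, 1.93 and 0.63 in the DsRed-positive arrays, where the uroplakin mean is 1.96, 2.28 and 2.40. All epithelial lists are below 0 and the fibroblast list above 0 in the DsRed-negative arrays.

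Markers of other cells moved with the groups. All 8 fibroblast and matrix markers fell in DsRed-positive cells. Of the smooth muscle and mural markers, 5 of 6 tested fell, and 5 of 6 endothelial and 6 of 7 leukocyte markers did so too; Cnn1 and Tie1 were at or below the floor on all DsRed-positive arrays. Without both arrays numbered 1 these counts were 8 of 8, 5 of 6, 3 of 6 and 5 of 7. The endothelial mean level was 7.86 to 8.04 in DsRed-positive and 9.89 to 10.54 in DsRed-negative cells, and that of leukocytes 7.87 to 7.94 and 11.34 to 11.69. Of the Schwann and nerve list, 5 of 7 genes were measured and 2 of 4 tested rose (Mbp and Erbb3; 0 of 4 without both arrays numbered 1), with a mean of 9.47 to 9.83 in DsRed-positive and 8.16 to 8.99 in DsRed-negative cells. The part of these cells in the DsRed-negative signal of Itga6, Dst, Plec and Cd151 was not tested.

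Of 8 other laminin chains, 0 rose, 5 fell in DsRed-positive cells and 3 (Lama5, Lamb1 and Lamc3) did not pass, with a median change of -2.18, against 0.04 over all tested genes. Of all tested genes, 9.21% rose and 11.3% fell. Lama4 and Lama2, alpha chains of vessel and muscle basement membranes, changed by -7.59 ± 1.01 (adjusted p = 0.00220) and -6.96 ± 0.74 (adjusted p = 0.000853), and Lamc1, the common gamma chain, by -3.24 ± 0.44 (adjusted p = 0.00255). Lamb2 (-2.04) and Lama1 (-2.33) fell too. Lama5, the alpha chain most used by epithelia, averaged 10.59 ± 0.65 in DsRed-positive cells and 9.55 ± 0.34 in DsRed-negative cells and did not pass (1.04 ± 0.43, adjusted p = 0.145). Without both arrays numbered 1, Lama2 and Lamc1 were the 2 chains still called. No chain of this list rose and 5 or 6 fell under each scaling tried.

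Of 16 genes of the basement membrane scaffold, 0 rose, 8 fell in DsRed-positive cells and 8 did not pass, with a median change of -1.97, and 4 fell without both arrays numbered 1. On unnormalized values 10 fell, and on median-centred arrays 6 fell and 1 rose. The collagen IV chains Col4a1 (-6.01 ± 0.52) and Col4a2 (-6.05 ± 0.31) and the linker Nid1 (-4.90 ± 0.48) fell, and Frem1 was at least 21.7-fold lower against the floor. Col7a1, which forms the anchoring fibrils below the epithelium, averaged 8.92 ± 0.30 in DsRed-positive cells and 10.92 ± 0.16 in DsRed-negative cells, a change of -2.01 ± 0.33 that passed (adjusted p = 0.00580) but not without both arrays numbered 1 (0.0787). Agrn (0.45), Col18a1 (0.94) and Hspg2 (-0.68), the heparan sulfate proteoglycans of the scaffold, did not pass on their brightest probe sets, which are those counted here. Hspg2 was called lower on 1 of its 2 tested probe sets. The fibroblast markers given above were lower in the same arrays.

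Genes listed as partners of the anchor, inside and beside the cell, were split. Of 16 measured, 7 rose, 4 fell and 5 did not pass, with a median change of 0.66. The shares over all tested genes were 9.21% and 11.3%. The 7 include Krt5, Krt14, Krt15 and Trp63, which are also in the basal list above. Trp63 was called on 1 of its 3 tested probe sets. Without both arrays numbered 1, 4 of the 16 rose and 3 fell. Lad1, which encodes the anchoring filament protein ladinin, averaged 13.96 ± 0.18 in DsRed-positive cells and 9.61 ± 1.29 in DsRed-negative cells, and rose by 4.34 ± 0.62 (adjusted p = 0.00311). The keratins that the plakins bind in basal cells, Krt5 (2.61 ± 0.43) and Krt14 (2.03 ± 0.51), rose, and so did the tetraspanin Cd9 (3.37 ± 0.34). Krt14 was called on 1 of its 3 tested probe sets, and not without both arrays numbered 1 (adjusted p = 0.172). Cd81, another tetraspanin partner of integrins, fell (-1.34 ± 0.35, adjusted p = 0.0374, and 0.222 without both arrays numbered 1). Bmp1 (-3.34 ± 0.39) and Mmp14 (-3.33 ± 0.40), proteases that can cut laminin chains of the anchor, were lower in DsRed-positive cells. Mmp14 was called on 1 of its 3 tested probe sets. Itga3 (-0.10) and Itgb1 (-0.48), chains of the other epithelial laminin receptor, did not pass.

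**Figure D4:**
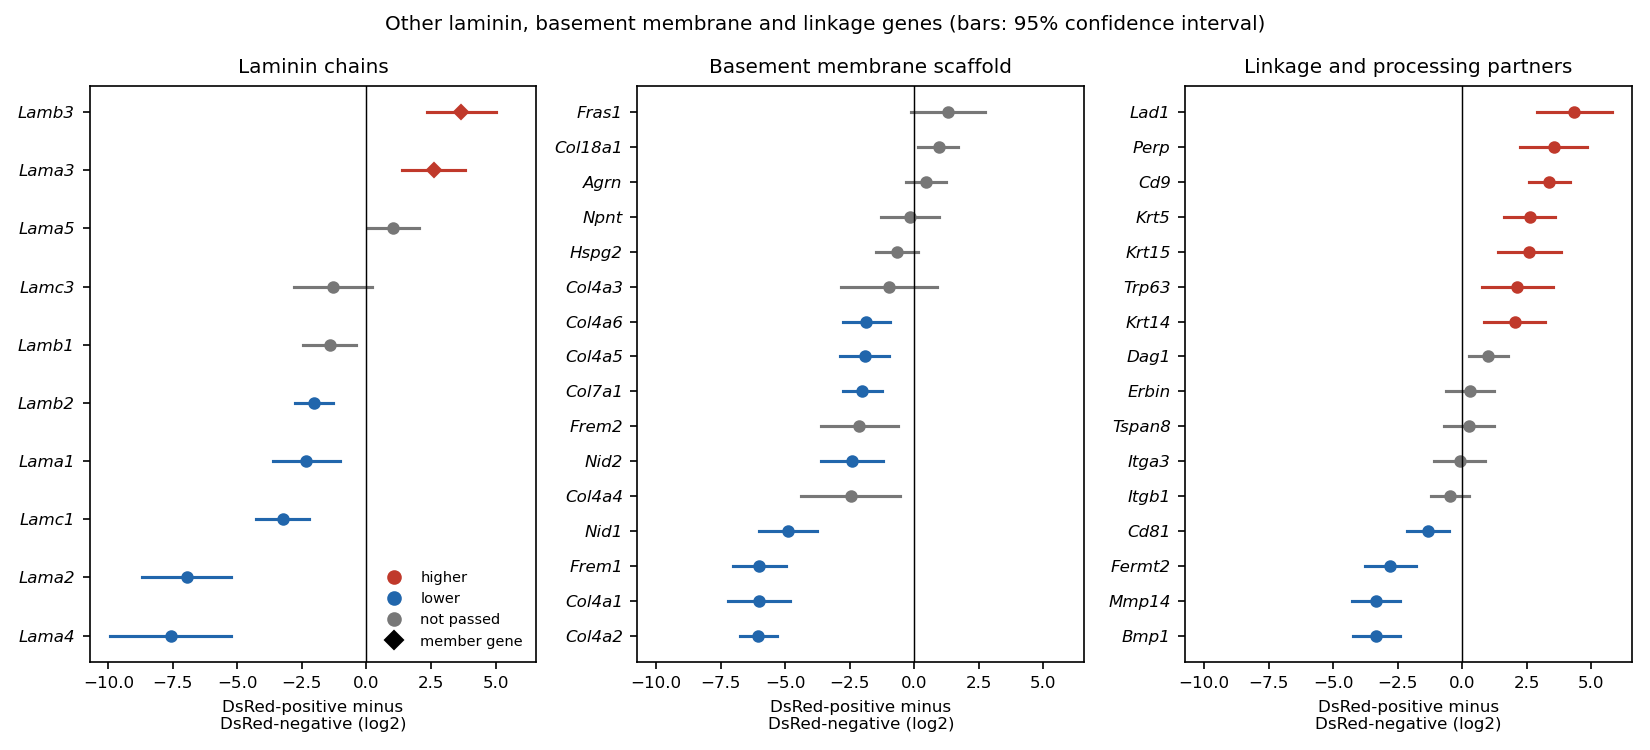
Change in log2 signal, DsRed-positive minus DsRed-negative (x axis), for tested laminin chains, basement membrane scaffold genes and linkage partners (y axis), with 95% confidence intervals. Lama3 and Lamb3 (diamonds) stand at 2.61 and 3.67 and are the laminin chains that rose, while Lama4, Lama2, Lamc1, Lama1 and Lamb2 fell.

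Genes outside the 8 were ranked by Pearson correlation, over the 6 arrays, with the mean of the standardized brightest probe sets of the 8. The 6 most alike were Rnf25 (r = 0.991), Rraga (0.989), Gm13648 (0.988), Paxip1 (0.988), 4930473A02Rik (0.986) and Babam1 (0.985). The 6 points share 2 groups, so these values describe 6 arrays and carry no test. Of the 6, Rnf25 and Gm13648 were called higher in DsRed-positive cells (limma adjusted p of 0.0340 and 0.0488), by at least 1.68-fold and 1.36-fold against the floor, at or below which all their DsRed-negative arrays lay. Of all tested genes, 9.21% were called higher. The mean used for the ranking was itself higher in every DsRed-positive array, so the direction of these genes follows from the ranking and their calls are no separate result.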

How the data were processed

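RNA of 3 DsRed-positive and 3 DsRed-negative samples was measured on 1 array each, and groups and numbers follow the sample titles. The values deposited by the authors are probe set signal intensity on a linear scale, taken so because they are positive with 2 decimals; the submitters' processing notes name GCOS, with no version or settings stated. On each of the 6 arrays the deposited intensities had a trimmed mean of 1500.01 (2% off both tails), so they had been scaled to a common level.

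To every value 39.84 was added, the 20th percentile over the whole table, before taking log2, and arrays were quantile normalized because their medians spanned 0.74, more than the limit of 0.2. The offset shrinks ratios of dim probe sets. Of 45101 probe sets, 64 controls were removed, and 30175 whose mean log2 signal exceeded 7.18, percentile 33, were tested. Symbols came from the platform annotation, updated by gene ID for 34741 of 34945 single-gene probe sets; 932 had several symbols and 9160 none here. Differences were fitted with limma 3.58.1 in R 4.3.3 (lmFit and eBayes, two-sided, threshold 0.05); the code was tested on simulated data. The floor of an array is percentile 95 over its 27 unspiked controls; where all arrays of 1 group lie at or below it, the fold is given against it. Errors of changes are SE of the fit. Members and lists were chosen with earlier results of these data known. All 8 members were named with every probe set, other lists by members, and likeness by the 6 highest correlations. Alternatives were other scalings, offsets and filters, the number as a block, trend and robust estimation, other probe set choices and leaving out arrays; leaving out both arrays of a number was chosen after seeing the data. The number of arrays limits the precision.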

Additional observations from a re-analysis of the deposited data

How the results depend on the processing

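Over all probe sets 5205 were called, 50% of them higher in DsRed-positive cells; the share higher was 38.8% on unnormalized values (5802 called) and 67.8% on median-centred arrays (7184 called). Leaving out 1 array gave 2858 to 4878 calls over all probe sets; against 7 member probe sets and 3 member genes called in all arrays, it gave 3 to 8 and 1 to 4. Both arrays of 1 number left out together gave 2135 (number 1), 3164 (number 2) and 2395 (number 5) calls over all probe sets, 2, 2 and 5 member probe sets and 1, 1 and 3 member genes. Member probe set calls numbered 6 or 7 under the other 8 settings: 6 with an offset of 1, no filter or a filter at the 50th percentile, and 7 otherwise. The member gene count stayed at 3 under these 8. When a gene's probe sets were averaged, 4 genes were called, and Dst changed sign, at 3.01 against -0.18 on its brightest probe set; that setting averages the probe sets that rose with the one that did not. With probe sets free of the suffixes _s_at, _x_at and _a_at, 4 genes could be tested and 1 (Itga6) was called. Deviations of same-numbered arrays correlated at 0.15, 0.04 and 0.05; each array correlated best with its own number, and both arrays numbered 1 share the Xist and Eif2s3y levels that set them apart, but no label says what a number marks. With the number as a replicate block 4404 probe sets were called over all, the members gave 7 probe sets and 3 genes, and no member call changed. Dst 1421117_at lost its call with an offset of 1 (adjusted p = 0.0683) and with no filter (0.0573). Signals at the floor limit the folds of Itgb4, Lamb3, Col17a1 and Dst.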
